A study of Mus musculus with 14 samples.

Results

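The cytosolic ribosomal protein genes were followed through embryoid body (EB) differentiation of mouse embryonic stem cells carrying a control hairpin or a hairpin against Dis3l2. Members were chosen by symbol alone. A gene belonged if its name was Rpl or Rps followed by a number, with an optional a, l, x or y and a digit, or was Rpsa, Rplp0, Rplp1 or Rplp2, and pseudogene names and the Rps6k kinases stayed out. The rule took 83 of the 16181 protein-coding genes with deposited CPM values (reads of a gene scaled to all reads on those genes). Of these, 43 encode large subunit proteins, 31 encode small subunit proteins, 3 encode the acidic stalk (Rplp0, Rplp1, Rplp2) and 6 are paralogs named after another member (Rpl3l, Rpl7l1, Rpl10l, Rpl22l1, Rpl39l, Rps27l).

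Mouse embryonic stem cells with a stable short hairpin against LacZ (shLacZ, the control) or Dis3l2 (shDis3l2, written shDIS3L2 here) were sampled undifferentiated in LIF and 2i (d0) and as EBs on days 2, 4, 6, 8, 10 and 12. Per the study, both hairpins were placed in a line with an Osr1-GFP reporter, which marks renal progenitors. The EBs formed from ESCs in hanging drops and then grew in suspension in serum medium without LIF and 2i. Each line and day had 1 RNA library, so the 14 libraries hold no replicate of any group. The labels name polyA RNA, while the study's methods name both poly(A)+ mRNA and a library guide for total RNA, so the selection step is not certain. In the tests below the 7 days stand in for replicates of a line, or both lines for replicates of a day. The p-values therefore compare 2 series of libraries and not independent cultures or clones.

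Ribosomes are built from ribosomal RNA and one copy of most ribosomal proteins, so the mRNAs of these proteins are abundant, short and broadly co-expressed. Many of them begin with a 5′ terminal oligopyrimidine (TOP) tract, a C followed by further C and T bases, through which growth signalling sets their translation. Mammalian genomes also carry many processed pseudogenes copied from these mRNAs, and a few expressed paralogs whose use differs between tissues. DIS3L2 is a 3′ to 5′ exonuclease that degrades uridylated cytoplasmic RNA.

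RefSeq start windows on GRCm38.p6 were found for 63 of the 83 members, some with several starts, giving 75 windows. The windows were searched on the sense strand for a C followed by at least 4 bases that are C or T, with that C within 10 bases of the annotated start. Such a run stood in 41 of the 75 member windows (54.7%) and in 10093 of the 32851 windows of all genes (30.7%). By gene, 39 of the 63 members had one in at least 1 of their windows, a count that was not made by gene over all genes. Runs of 8 or more bases stood in 24 of the 75 member windows and in 8.11% of all windows. A match is a description of the letters at an annotated start, and these starts are not all at the base where transcription begins. The first windows below show members whose run lies at or near the start and whose mRNAs take part in the results that follow, and the last ones show the paralogs. Each runs from 15 bases before the start to 15 bases from it, 5′ to 3′, with the longest such run in capitals.
Rpl38 (chr11:114668565-114668594, + strand): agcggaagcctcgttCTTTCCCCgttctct
Rps6 (chr4:86857353-86857382, - strand): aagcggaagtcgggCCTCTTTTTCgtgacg
Rplp2 (chr7:141447636-141447665, + strand): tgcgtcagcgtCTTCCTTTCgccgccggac
Rpl35 (chr2:39005117-39005146, - strand): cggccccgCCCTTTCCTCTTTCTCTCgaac
Rpl15 (chr14:18270972-18271001, - strand): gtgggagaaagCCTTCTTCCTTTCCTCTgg
Rps27 (chr3:90213634-90213663, - strand): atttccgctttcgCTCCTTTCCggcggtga
Rpl22l1 (chr3:28805493-28805522, + strand): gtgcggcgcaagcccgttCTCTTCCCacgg
Rps27l (chr9:66946071-66946100, + strand): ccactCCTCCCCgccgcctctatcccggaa
Rpl10l (chr12:66284387-66284416, - strand): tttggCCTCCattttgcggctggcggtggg
Rpl39l (chr16:10170213-10170242, + strand): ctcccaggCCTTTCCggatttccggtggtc
In Rpl38 the run began at the annotated start itself and in Rps6 1 base before it. The runs of Rpl10l and Rps27l lay 10 bases upstream and were 5 and 7 bases long, and Rpl7l1 had no run in its window.

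The libraries held 7178712 to 39888099 reads on genes. The targeted gene Dis3l2 was listed in undifferentiated cells at 36.7 CPM with the control hairpin and 5.22 CPM with its own, at 18.2 and 5.19 at d2, at 25.0 and 8.05 at d4 and at 26.9 and 14.8 at d6. From d8 to d12 it ranged from 21.5 to 22.7 CPM in shLacZ and from 16.5 to 21.96 CPM in shDIS3L2, so the targeted mRNA was nearer to its control level in those late libraries. Summed markers of undifferentiated cells (8 of 8 genes found, among them Pou5f1 and Nanog) went from 5639 to 651 CPM between d0 and d12 in shLacZ and from 4595 to 478 CPM in shDIS3L2. Summed mesenchymal markers (7 genes, among them Col1a1 and Col3a1) reached 16957 CPM at d12 in shDIS3L2 against 1435 CPM in shLacZ, and visceral endoderm markers (7 genes, among them Afp and Ttr) 1492 against 4848 CPM. In such bulk libraries, fewer cells of a type and less RNA per cell cannot be told apart.

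The members held their largest share of reads in undifferentiated cells, and the share was lower in every EB library of both lines. At d0 they held 11.7% of the reads on listed genes in shLacZ (95% Clopper-Pearson interval 11.65 to 11.68, 3644889 reads) and 14.9% in shDIS3L2 (14.87 to 14.90, 2965544 reads). The d2 shares were 3.27% and 3.86%, those of d4 2.87% and 3.21%, and those of d6 2.92% and 2.78%. The d8 libraries held 2.46% and 2.52%, those of d10 2.36% and 2.43%, and those of d12 2.03% and 2.16%. The intervals cover counting error only and not the spread between cultures. Both d0 libraries stood far above all others, and the EB libraries then declined slowly. A share is relative to the other mRNAs in the library and says nothing of the amount per cell.

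**Figure D1:**
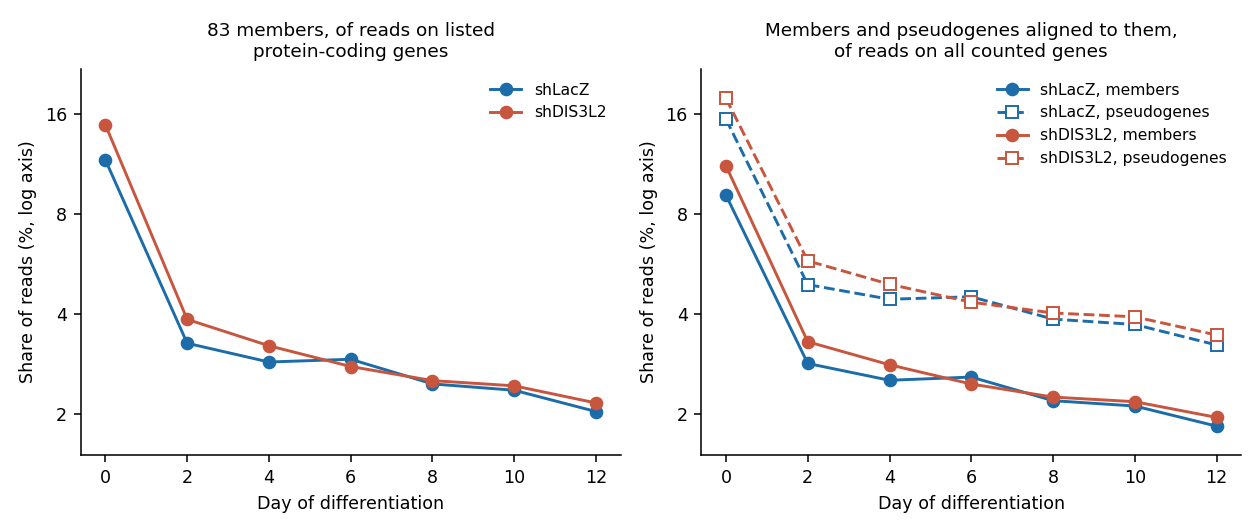
Share of reads (%, log axis) by day of differentiation for the 83 members among listed protein-coding genes (left) and for the members and the pseudogenes aligned to them among all counted genes (right), 1 point per library. In both lines the share at d0 (11.7% and 14.9%, left) is far above d2 (3.27% and 3.86%), and the pseudogene curves run above the member curves throughout.

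With day tested across all genes by edgeR (line as a block, 20050 genes, Benjamini-Hochberg adjusted p under 0.05), 81 of the 83 members were lower at d2 than at d0 and 0 were higher. Over all genes tested, 31.0% were lower and 34.5% higher. The members' median log2 fold change was -2.19, beside 0.12 over all genes tested. All 31 small subunit, 41 of 43 large subunit, all 3 stalk and all 6 paralog genes fell. The largest falls were those of Rplp2 (log2 fold change -4.11, SE 0.44, adjusted p = 2.34e-05), Rpl24 (-4.06, SE 0.36, adjusted p = 7.12e-06) and Rpl38 (-3.76, SE 0.37, adjusted p = 1.34e-05), a large subunit protein known for its part in patterning of the skeleton. At the other end, Rpl7 (-0.33, adjusted p = 0.0835) and Rpl30 (0.20, adjusted p = 0.348) did not pass, and Rpl7l1 fell by 0.54 (adjusted p = 0.0149), though with library totals in place of TMM scaling it stood at 0.0658. That scaling put the median of all genes at 0.71 and that of the members at -1.58, with 72 members lower and 1 higher (Rpl30). Over all 20050 genes it gave 4107 lower and 9265 higher, so that 69.3% rather than 52.7% of all called genes were higher.

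The single libraries behind these values were as follows. Rplp2, a stalk protein that recruits translation factors, went from 1613 CPM at d0 to 165 at d2 in shLacZ and from 2644 to 179 in shDIS3L2. Rpsa, the laminin receptor homologue of the small subunit, went from 6483 to 1789 CPM and from 9993 to 2211 CPM. Rpl4 went from 5973 to 2947 CPM and from 5027 to 3082 CPM. Both d0 libraries were above both d2 libraries for each of these 3 genes. Rpl5 and Rpl11, which join 5S rRNA in a particle that also binds Mdm2, fell by 1.77 and 1.64 on the log2 scale (adjusted p = 7.04e-06 and 6.48e-06). Rps19, the gene most often mutated in Diamond-Blackfan anaemia, fell by 2.90 (adjusted p = 1.55e-06) and Rps6, the S6 kinase substrate, by 1.48 (adjusted p = 1.02e-05).

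The d0 libraries also stood apart from the others by gene length, and the members' mRNAs are short. Their merged exons span 404 to 6270 bases in the authors' table. Among other listed genes with a mean of 10 CPM or more, the median change from d0 to d2 on the log2(CPM + 1) scale ran in shLacZ from -1.87 for genes of up to 600 bases (46 genes) to 1.25 for the longest bin (1819 genes). In shDIS3L2 it ran from -1.79 to 1.44 over the same bins. From d2 to d6 the same medians stayed between -0.05 and 0.08 in shLacZ and between -0.35 and 0.19 in shDIS3L2. Set against the median of its own length bin, the change of 72 of the 83 members in shLacZ and 71 in shDIS3L2 lay below that median, with a median distance of -0.93 and -1.22. With the length trend of each library entered as an offset in the edgeR fit, 69 members were lower and 1 higher, and the members' median was -1.63. Calls over all genes were not counted for that fit. The 1 higher was Rpl30 (0.52, adjusted p = 0.0183), a value limited by the few family reads on the gene itself. What set the length trend apart at d0, the RNA selection included, was not tested.

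**Figure D2:**
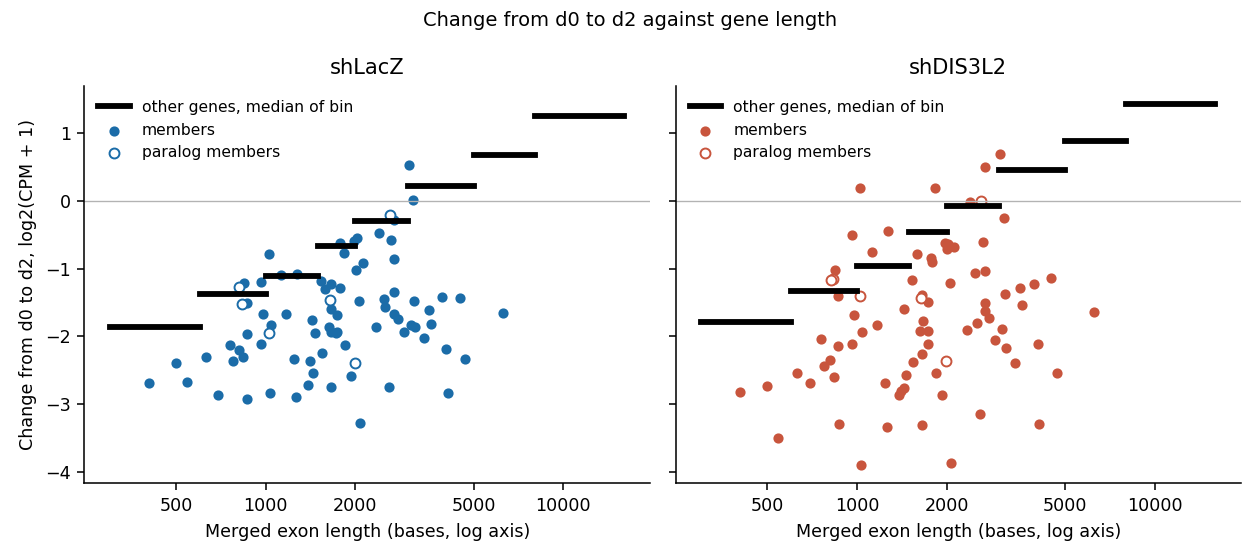
Change from d0 to d2 on the log2(CPM + 1) scale (y axis) against merged exon length in bases (log axis) for the members (filled circles, paralogs open) in each line, with the median of all other listed genes in each length bin as black bars (the last bin is open-ended). Other short genes also sit below 0 (-1.87 and -1.79 up to 600 bases), and 72 and 71 of the 83 members lie below the bar of their own bin.

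After d2 the members moved less. Between d2 and d6, 10 members were lower and 0 higher in the edgeR test, where 19.4% of all genes were lower and 19.4% higher. The members' median was -0.26 beside -0.06 over all genes. The 3 steepest were the paralogs Rpl3l, Rpl39l and Rpl10l, described below, followed by Rps12 (-1.28, SE 0.25, adjusted p = 0.00275) and Rpl3 (-1.23, SE 0.22, adjusted p = 0.0019), the protein nearest the peptidyl transferase centre. The highest were Rpl31 (0.22, adjusted p = 0.33), Rps14 (0.20, adjusted p = 0.329) and Rpl22l1 (0.13, adjusted p = 0.477), none of which passed. Rpl3 and Rps12 each had under 2% of their family's reads on the gene itself (see the pseudogenes below), which limits both values.

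Between d6 and d12, 13 members were lower and 1 higher, where 2.15% of all genes were lower and 5.02% higher. The members' median was -0.43, beside 0.07 over all genes tested. The 13 were Rpl4, Rpl5, Rpl7, Rpl11, Rpl17, Rpl22l1, Rpl31, Rpl35a, Rps3, Rps3a1, Rps4x, Rps6 and Rps24, with Rpl31 lowest (-0.77, SE 0.17, adjusted p = 0.0325). Rps27 (-1.21, adjusted p = 0.0801), Rpl24 (-0.96, adjusted p = 0.132) and Rpl23a (-0.87, adjusted p = 0.0829) had larger differences that did not pass. The paralogs Rpl39l (1.602 on the log2 scale, adjusted p = 0.199) and Rpl10l (0.85, adjusted p = 0.449) were highest after Rpl3l and did not pass. Of the 83 members 75 had a negative estimate. DESeq2 called 32 members lower and 1 higher, where 1165 of all 20050 genes tested were lower and 1541 higher. Of its calls over all genes, 56.9% rather than 70.0% were higher. The count rested on the libraries in the fit: it was 41 when the d0 libraries were left out, 8 when d8 was left out and 4 when d4 or d10 was left out.

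The 1 gene higher at d12 was Rpl3l, a paralog of Rpl3 known from heart and skeletal muscle. From d0 to d12 it had 154, 26, 1, 0, 4, 2 and 6 reads in shLacZ and 108, 25, 1, 0, 5, 1 and 4 reads in shDIS3L2. Its calls between d2, d6 and d12 thus turn on 0 reads at d6 and single reads elsewhere, and no fold is given.

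The members' mRNAs took a larger share of reads in shDIS3L2 than in shLacZ early on, and the ratio was nearer to 1 on the later days. The ratio of the members' shares, shDIS3L2 over shLacZ, was 1.28, 1.18 and 1.12 on d0, d2 and d4. It was 0.951 on d6 and then 1.02, 1.03 and 1.06 on d8, d10 and d12. Among members with 10 CPM or more in 1 of the 2 libraries, 62 of 82 were higher in shDIS3L2 at d0, 75 of 79 at d2 and 71 of 76 at d4. On the 4 later days the counts were 30 of 76, 48 of 74, 42 of 75 and 53 of 74. Their median fold was 1.21, 1.19 and 1.14 at d0, d2 and d4, beside 0.860, 0.979 and 1.01 over all listed genes at that level. With 1 library per line and day, these counts compare libraries and carry no test.

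**Figure D3:**
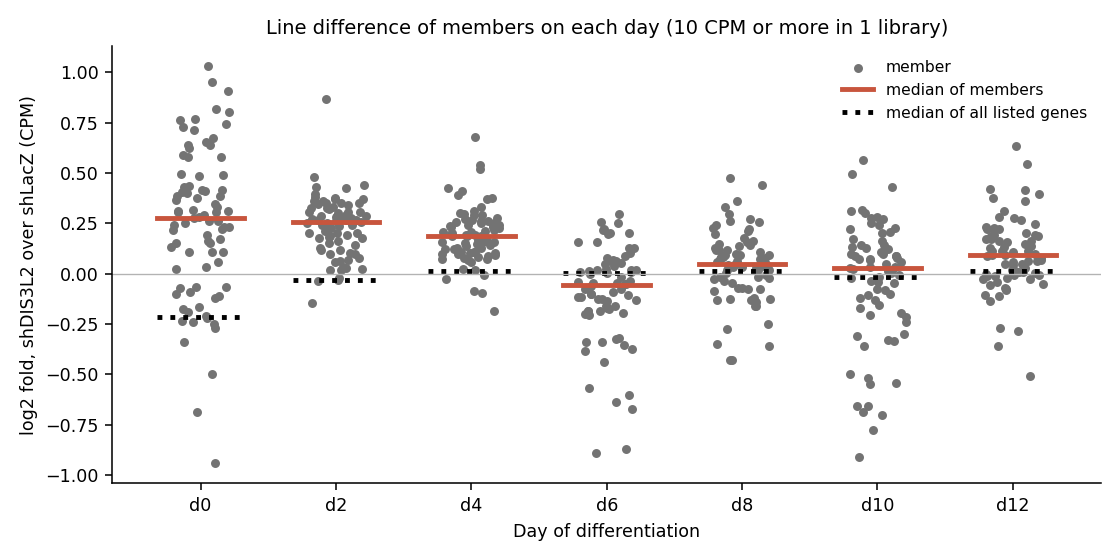
log2 fold of CPM, shDIS3L2 over shLacZ, of each member with 10 CPM or more in 1 library (grey points) on each day, with the median of the members (solid line) and of all listed genes (dotted line). The points lie mostly above 0 at d2 and d4 (75 of 79 and 71 of 76) and spread to both sides from d6 on.

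On each of d0, d2 and d4, 56 of the 82 members listed at 1 CPM or more were higher in shDIS3L2 and 0 were lower on each. Of all genes listed at that level, 9.74% were higher and 24.8% lower on each of those days. On each of d6, d8, d10 and d12, 20 members were higher and 10 lower, beside 29.6% and 28.2% of all genes. On each of the 7 days 19 members were higher and 0 lower, beside 3.15% and 10.1% of all genes. Members of this kind included Rpl5, Rpl10, Rpl11, Rpl17, Rpl21, Rpl22, Rpl22l1, Rpl26, Rpl35, Rpl37, Rpl37a, Rpl39, Rpl41, Rps3, Rps3a1, Rps14, Rps15a and Rps24. These hold both proteins of the 5S particle and Rpl26 and Rpl35 at the exit of the nascent chain tunnel.

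Short genes leaned the same way on those days. The median line difference of other genes of up to 600 bases was 0.31 at d0, 0.27 at d2 and 0.13 at d4 on the log2(CPM + 1) scale, and -0.28, -0.12 and -0.06 for the longest bin. Set against its own length bin, 69 of the 83 members at d0, 69 at d2 and 68 at d4 lay above the bin's median line difference, with median distances of 0.39, 0.14 and 0.12. On d6, d8, d10 and d12 the counts were 47, 54, 52 and 64, with median distances of 0.04, 0.07, 0.10 and 0.13. Against genes of like merged length, which also counts alternative exons, the line difference at d12 was thus about as large as at d2 and d4. The part of length in the line difference was not tested further.

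Members past a fold of at least 1.5, with 1 CPM in 1 of the 2 libraries, were most numerous at d0. On that day 16 were higher and 2 lower in shDIS3L2 (5.22% and 26.1% of all genes listed), and at d2 1 and 0 (2.52% and 5.61%). The d4 counts were 1 and 1 (5.03% and 11.3%), those of d6 0 and 7 (14.2% and 15.4%), and those of d8 1 and 1 (20.1% and 16.2%). Those of d10 were 0 and 7 (22.2% and 17.7%) and those of d12 3 and 0 (20.8% and 10.4%). The d0 count depended on the scaling. With TMM-scaled CPM 28 members were higher and 1 lower at d0, where 1200 of all 12573 listed genes were higher and 2068 lower. With DESeq2 size factors the counts were 44 and 1, where 1834 of all 12609 listed genes were higher and 1430 lower. From d6 on the members' share past this fold in CPM was thus below that of all listed genes in both directions. Of the 7 lower at d10, Rpl27, Rpl36, Rps2, Rps12, Rps13 and Rps29 had under 4% of their family's reads on the gene itself. With pseudogene reads added, the d10 fold of Rpl27 went from 0.634 to 1.04, that of Rps29 from 0.501 to 0.932 and that of Rps2 from 0.615 to 0.723. Rplp2, with 98.5% of its family's reads on the gene, had folds of 0.531 and 0.527 in the 2 counts.

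In the edgeR fit of line over all 7 days, blocked by day, there were 2 members higher in shDIS3L2 and 0 lower, where 1.91% of all genes were higher and 3.82% lower. The members' median log2 fold change was 0.12, beside -0.03 over all genes. At an unadjusted p under 0.05 there were 13 members in either direction, a count that was not made over all genes. DESeq2 called 6 members higher and 0 lower, where 1073 of all 20050 genes tested were higher and 1449 lower. The 2 were Rpl22l1 (0.37, SE 0.07, adjusted p = 0.0253) and Rps14 (0.34, SE 0.08, adjusted p = 0.0384), a small subunit protein whose loss is known from the 5q- syndrome. Rps14 stood at 3407, 519, 519, 594, 563, 520.0 and 426 CPM in shLacZ from d0 to d12, and at 4785, 652, 612, 682, 724, 702 and 560.0 CPM in shDIS3L2. It was higher in shDIS3L2 on all 7 days, by 1.15 to 1.40 times. Neither call passed when d6, d8, d10 or d12 was left out, nor that of Rps14 without d4 (adjusted p between 0.0533 and 0.127 for Rps14, and between 0.066 and 0.0988 for Rpl22l1). Rps27 had the highest estimate (0.52, adjusted p = 0.121) and Rpl10l (-0.38, adjusted p = 0.474), Rps2 (-0.33, adjusted p = 0.187) and Rps12 (-0.20, adjusted p = 0.366) the lowest.

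Over d6 to d12, 3 of the 82 members tested were higher (Rpl22l1, Rps14, Rpl17) and 5 lower (Rps2, Rps27l, Rpl13, Rpl13a, Rpl7l1), where 19.6% of all genes were higher and 18.7% lower. The members' median was 0.03 and that of all genes 0.02. Rps27l was lower by 0.39 (SE 0.08, adjusted p = 0.00818) and Rpl13 by 0.34 (SE 0.08, adjusted p = 0.0132), while Rpl17 was higher by 0.23 (SE 0.07, adjusted p = 0.0325), a call lost when any 1 of the 4 days was left out (adjusted p from 0.0654 to 0.117). The estimates of Rps2 (-0.45, adjusted p = 0.0334) and Rpl13a rest on genes with 1.65% and 12.7% of their family's reads, and with the pseudogene reads added Rpl13a turned to 0.06 (adjusted p = 0.605). Rpl10l (-0.73, adjusted p = 0.284), Rplp2 (-0.48, adjusted p = 0.0593), Rpl39l (0.30, adjusted p = 0.729) and Rps27 (0.42, adjusted p = 0.209) did not pass.

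Rpl13, a large subunit protein, lies on chromosome 8. It stood at 596, 481, 488 and 455 CPM in shLacZ from d6 to d12 and at 402, 404, 412 and 373 CPM in shDIS3L2, so the lines did not overlap. The 569 other listed genes of chromosome 8 with a mean of 10 CPM or more were also lower in shDIS3L2, with a median between -0.39 and -0.25 on the log2(CPM + 1) scale on each of the 7 days. From d4 on, chromosome 8 had the lowest median of all chromosomes. Chromosome 16, where Rpl24, Rpl35a and Rpl39l lie, was also lower (331 other genes). Its median was -0.36 at d0, -0.26 at d2, -0.13 at d8 and -0.04 at d12. Whether the shift of chromosome 8 accounts for Rpl13, or that of chromosome 16 for its members, was not tested.

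The difference between the lines itself changed between early and late days. In the edgeR test of that change (line difference at d6 to d12 minus that at d0 to d4), 9 members were lower and 0 higher, beside 5.24% and 4.85% of all genes. The estimate was negative for 79 of the 83, with a median of -0.35 beside -0.04 over all genes. An unadjusted p under 0.05 was reached by 45 members, a count that was not made over all genes. All 3 stalk genes were among the 9: Rplp2 (-1.07, SE 0.25, adjusted p = 0.0247), Rplp1 (-0.82, SE 0.21, adjusted p = 0.0341) and Rplp0 (-0.50, SE 0.13, adjusted p = 0.0329). Rps27l, Rps21, Rpl8, Rpl27a and Rpl18 were among them too. At the upper end Rpl39l (0.11), Rpl15 (0.09) and Rps23 (0.01) did not pass, and Rpl3l (-0.93, adjusted p = 0.442) was among the lowest without passing. With library totals in place of TMM scaling the members' median was -0.18 and that of all genes 0.13, and 73.3% rather than 48.0% of all called genes were higher. The count of members lower was 1 with that scaling, 1 with the length offset and 1 without the d0 libraries, and the gene left in each was Rps27l. Leaving out d2, d6, d8, d10 or d12 left 0, 3, 3, 1 and 4.

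The stalk genes Rplp1 and Rplp2 differed between the lines unevenly from day to day, and Rplp0 did so less. Rplp1 stood at 4981, 944, 663, 694, 579, 752 and 606 CPM in shLacZ from d0 to d12, and at 7452, 1115, 963, 446, 698, 531 and 594 CPM in shDIS3L2. Rplp2 stood at 1613, 165, 149, 124, 96.6, 127 and 128 CPM in shLacZ and at 2644, 179, 214, 67.2, 97.8, 67.3 and 117 CPM in shDIS3L2. Both were higher in shDIS3L2 at d0, d2 and d4, lower at d6 and d10, and not lower at d8. At d12 their folds were 0.981 (95% interval 0.945 to 1.02) and 0.911 (0.839 to 0.989). Rplp0 had folds of 1.31, 1.17 and 1.17 at d0, d2 and d4, and of 0.921, 0.951, 0.890 and 1.02 from d6 to d12. Rpl36 had folds of 1.598, 0.547, 1.39 and 0.633 on d4, d6, d8 and d10. Of these days it too was lower only at d6 and d10. Few of its family's reads were on the gene itself (see above), which limits these folds. The mRNAs of Rplp1, Rplp2 and Rpl36 have a GC content of 57.3%, 55.0% and 60.8%. Among other genes of 54 to 58% GC, the bin of Rplp1 and Rplp2, the median line difference was 0.04, -0.11, 0.01 and -0.15 on those days. That of genes over 58% GC, the bin of Rpl36, was 0.10, -0.10, 0.16 and -0.14, and that of genes under 42% GC was -0.07, 0.09, -0.03 and 0.15. The part of GC content in these differences was not tested.

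The paralogs Rpl10l, Rpl39l and Rpl3l were at their highest in undifferentiated cells and at 8.59 CPM or less from d4 on. Rpl10 stayed at 483 CPM or more and Rpl39 at 164 CPM or more. Rpl10l and Rpl39l are autosomal copies of X-linked genes, known for their use in the male germ line, where the X is silent. Rpl10l stood at 200.3, 51.0, 8.26, 6.06, 8.59, 6.24 and 4.31 CPM from d0 to d12 in shLacZ and at 185, 69.1, 4.92, 0.878, 3.61, 5.09 and 7.79 CPM in shDIS3L2. Rpl10 went from 1858 to 669 CPM between d0 and d2 and was at 483 CPM at d12 in shLacZ, and at 1885, 812 and 567 CPM in shDIS3L2. Rpl39l stood at 84.8, 28.9, 1.94, 1.47, 2.28, 2.87 and 0.905 CPM in shLacZ and at 78.0, 34.4, 2.16, 0.239, 2.01, 3.82 and 4.89 CPM in shDIS3L2. Both paralogs followed the general fall from d0 to d2 and then fell again, by 4.13 (adjusted p = 0.000857) and 5.06 (adjusted p = 0.00039) on the log2 scale between d2 and d6. Over the same days Rpl10 (0.01, adjusted p = 0.949) and Rpl39 (-0.20, adjusted p = 0.238) did not pass.

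At d6 Rpl10l and Rpl39l were both lower in shDIS3L2, by folds of 0.145 (8 reads against 71) and 0.163 (2 reads against 17). At d12 both were higher, by folds of 1.81 (75 reads against 39) and 5.40 (47 reads against 8). Summed markers of undifferentiated cells were 84.3 CPM in that d6 library against 518 CPM in shLacZ, and 478 against 651 CPM at d12. Summed germ cell markers (5 genes) were 17.5 against 35.5 CPM at d6, and 27.5 against 21.6 CPM at d12. These late paralog levels rest on few reads, and their relation to either marker list was not tested. In the tests over d6 to d12 neither paralog passed (adjusted p = 0.284 and 0.729).

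**Figure D4:**
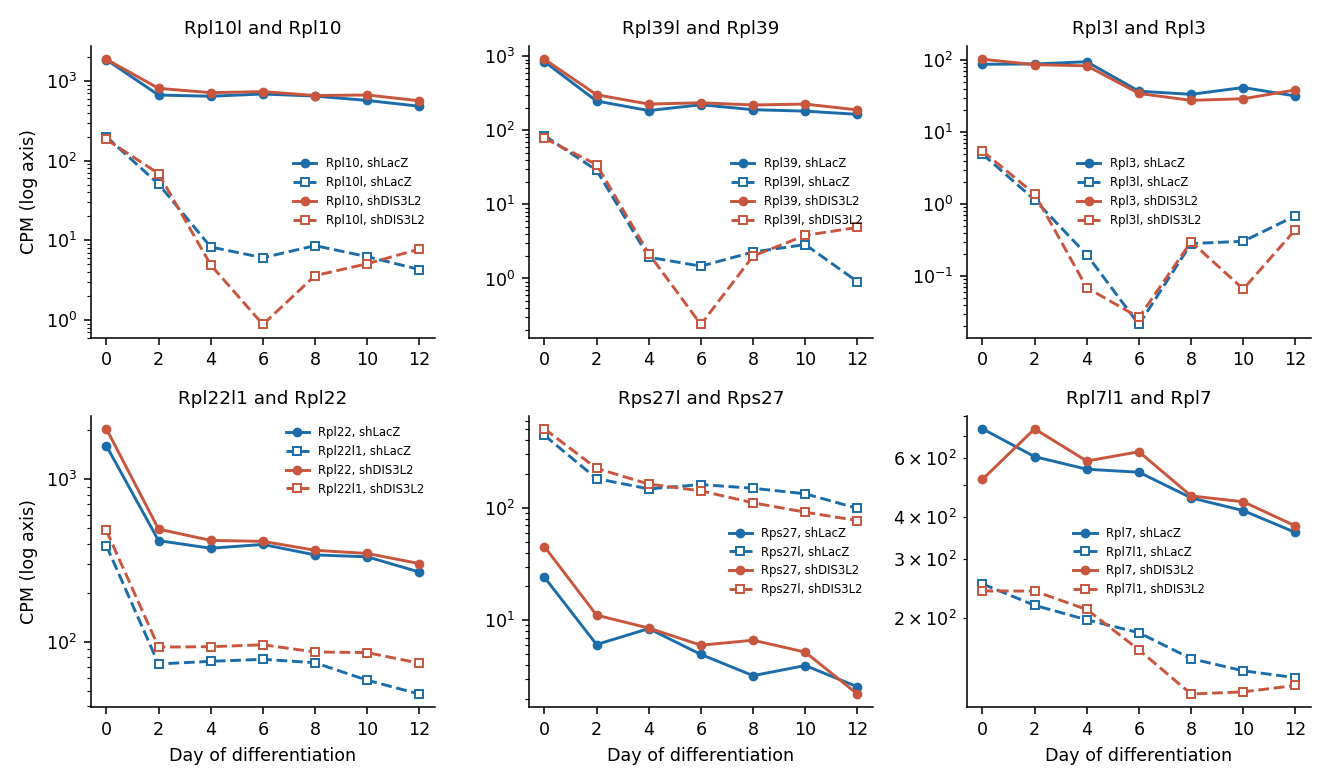
CPM (log axis) by day of differentiation of 6 paralogs (open squares, dashed) and of the member each is named after (filled circles, solid) in both lines, 1 point per library. Rpl10l and Rpl39l drop from 200.3 and 84.8 CPM at d0 to 8.26 and 1.94 CPM at d4 in shLacZ while Rpl10 goes from 1858 to 646 CPM. Rps27l lies above Rps27 in all 14 libraries, counting only reads on the gene itself and none on pseudogenes.

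Rpl22l1, which can replace Rpl22, differed between the lines. It stood at 390, 73.0, 75.7, 77.9, 74.2, 57.9 and 47.6 CPM in shLacZ and at 484, 92.7, 93.2, 95.8, 86.5, 85.7 and 73.8 CPM in shDIS3L2, higher in shDIS3L2 on all 7 days. Over d6 to d12 the log2 difference was 0.42 (SE 0.09, adjusted p = 0.0117), and without d10 it was 0.37 (adjusted p = 0.0618). Rpl22 itself was 1.04 to 1.27 times higher in shDIS3L2 on the 7 days and did not pass in either fit.

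Rps27l, a p53-inducible copy of Rps27, went the other way late. It stood at 443, 182, 148, 161, 150, 134 and 99.1 CPM in shLacZ and at 507, 225, 163, 142, 111, 91.6 and 77.1 CPM in shDIS3L2. It was higher in shDIS3L2 at d0, d2 and d4 and lower from d6 on, and the change of the line difference was -0.74 (SE 0.13, adjusted p = 0.0108). The difference over d6 to d12 passed in each alternative tried, and the change passed in each except without d2 (adjusted p = 0.0522). Of 10 listed p53 targets, 6 were lower in shDIS3L2 over d6 to d12 and 0 higher, beside 18.7% and 19.6% of all genes, and 4 were lower with the length offset. Among the 6 were Cdkn1a (-0.24, adjusted p = 0.0369) and Phlda3 (-0.37, adjusted p = 0.0216). Lower counts over d6 to d12 were not particular to p53 targets. Of 31 ribosome biogenesis genes 26 were lower, and of 8 proliferation markers 6, while 5 of 7 mesenchymal markers were higher. A part of p53 in the lower Rps27l was not tested. Rpl7l1, a relative of Rpl7, was lower by 0.21 over d6 to d12 (adjusted p = 0.0473), and that call was lost when any 1 of the 4 days was left out.

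Most reads of the members' families were counted on pseudogenes. With a BLAST match of at least 80% identity over at least 100 bases, 1327 of the 6363 annotated pseudogenes with reads were aligned best to a member's transcript. They held 15.5% of all counted reads in shLacZ and 17.9% in shDIS3L2 at d0, and 3.23% and 3.46% at d12. Members and pseudogenes together held 24.6% and 29.1% of all counted reads at d0. In the 14 libraries between 35.7% and 38.5% of the reads of these families were on the members themselves. That share was nearly the same in every library, while the families' total had dropped to 5.06% and 5.41% of all counted reads at d12.

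The split was uneven between members. Of the 83, 21 had under 10% of their family's reads and 9 had over 90%. Rpl23a, which lies at the tunnel exit, had 3960 of 425117 reads (0.932%), with 37 pseudogenes. Rps2 had 12905 of 780466 reads, and 632643 were on the single pseudogene Rps2-ps13. Rps12 had 1.31% and Rpl3 1.87%. At the other end Rps3 had 97.8% and Rpl8 97.1% of their family's reads. The CPM of a member covers only reads counted on the gene itself, and the order of members below holds for counted reads only. With the pseudogene reads added, 82 members were lower at d2 than at d0 and 0 higher, and the families held 7.75% of all counted reads in shLacZ and 9.09% in shDIS3L2 at d2, and 6.96% and 7.73% at d4.

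**Figure D5:**
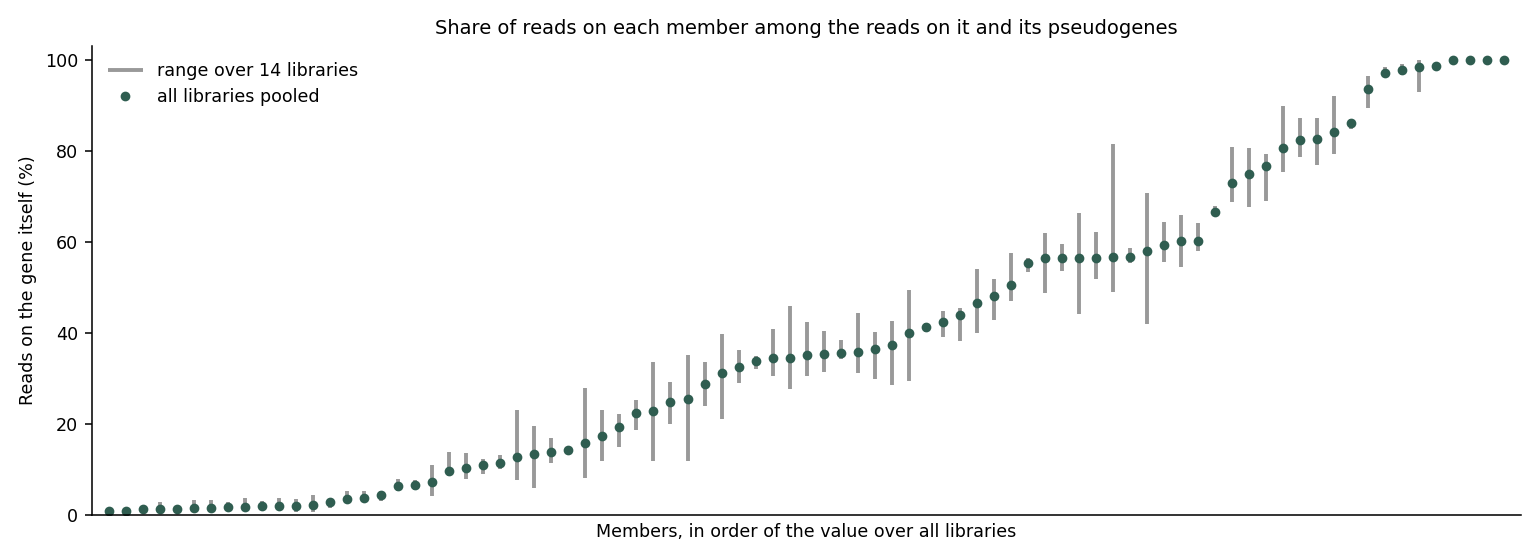
Percent of reads on each member among the reads on it and on the pseudogenes aligned to it (y axis), members ordered by the value over all libraries (points), with the range over the 14 libraries as bars. The values run from 0.932% (Rpl23a) to 100% (Rpl3l and Rpl41, with no pseudogene aligned), and 21 members lie under 10%.

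By mean level per length over the 14 libraries, the highest members were Rplp1 (3009 CPM per kilobase of merged exons), Rpl8 (2522), Rps15 (1702), Rpl4 (1329) and Rpl32 (1220). The lowest were Rpl3l (0.664), Rps13 (6.28), Rpl34 (7.03), Rpl30 (7.91) and Rps27 (9.46). Of the lowest, Rps13, Rpl34 and Rpl30 had 1.80%, 2.01% and 2.14% of their family's reads on the gene. With family reads over the same length Rplp1 (3549) and Rpl8 (2593) stayed high and Rpl23a stood at 1997 CPM per kilobase. The exons of 37 members overlap those of another gene in the authors' table, among them small nucleolar RNAs and neighbouring protein-coding genes, and reads there cannot be told apart by gene. The merged length also counts alternative exons, so levels per length are approximate.

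Rack1 and Fau, which carry no Rp symbol, were also lower at d2 than at d0. Rack1, a scaffold on the small subunit head, fell by 1.77 (adjusted p = 8.69e-06) and Fau, which encodes a ubiquitin-like fusion with Rps30, by 2.95 (adjusted p = 2.45e-06). Over d6 to d12 neither passed in the line test (adjusted p = 0.982 and 0.324).

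Of 21 other mRNAs with TOP tracts, 14 were lower and 1 higher at d2, with a median of -0.87, where 31.0% of all genes were lower and 34.5% higher. The elongation factor Eef1a1 (0.24, adjusted p = 0.382) did not pass and Eef2 fell by 0.43 (adjusted p = 0.046). All 7 snoRNA host RNAs fell from d0 to d2 (median -2.04) and again from d2 to d6 (median -1.42), with Gas5 at -1.38 (adjusted p = 0.000179) and -1.42 (adjusted p = 0.000577). Of 87 nuclear genes of oxidative phosphorylation (subunits, and the assembly factors named Ndufaf), which are also short, 83 were lower and 1 higher at d2 (median -2.26), and of 77 mitochondrial ribosomal proteins 67 were lower and 1 higher (median -1.57). With the length offset 11 of the 21 TOP mRNAs were lower and 4 higher (median -0.45), and 6 of the 7 host RNAs were lower and 0 higher (median -1.30). With that offset 73 of the 87 were lower and 3 higher (median -1.47), and 58 of the 77 lower and 7 higher (median -1.09).

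Of 31 ribosome biogenesis genes found, 12 were lower and 3 higher at d2, with a median of -0.42. Of all genes tested 31.0% were lower and 34.5% higher, with a median of 0.12. Over d6 to d12, 26 of the 31 were lower in shDIS3L2 and 0 higher (18.7% and 19.6% of all genes), among them nucleolin Ncl (-0.64, SE 0.07, adjusted p = 0.00129), the rRNA methylase Fbl (-0.38, adjusted p = 0.0129) and Bop1 (-0.36, adjusted p = 0.0229). Of 11 genes of RNA polymerase I, which makes ribosomal RNA, 6 were lower and 0 higher, with Polr1b at -0.59 (adjusted p = 0.0136). Mycn (-0.70, adjusted p = 0.0178) and Mycl (-0.97, adjusted p = 0.00518) were lower and Myc did not pass (0.00, adjusted p = 0.994). Over the same days 5 of 82 members were lower and 3 higher. Cell state markers moved with these lists: 6 of 8 proliferation markers (median -0.31) and 6 of 8 markers of undifferentiated cells (median -1.25) were lower in shDIS3L2 over d6 to d12 and 0 higher. Their part in the lower biogenesis, RNA polymerase I and Myc family genes was not tested. Between d0 and d2 Myc and Mycn rose by 2.71 (adjusted p = 3.7e-06) and 1.86 (adjusted p = 0.000391) while the members fell.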

How the data were processed

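RNA from 14 libraries was counted by the authors: per the labels and the study's methods, reads were aligned with Subread to GRCm38 and assigned to genes with featureCounts. The deposited counts are whole reads for 50686 genes. The deposited CPM values cover 16181 protein-coding genes and scale each library to its reads on those genes. For members at 10 CPM or more they differed by at most 0.297% from that ratio. The handling of reads with several matching positions and of strand is not given in the sources used here, and members share sequence with pseudogenes.

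Libraries were grouped by line and day from their titles. File columns for the Dis3l2 hairpin carry another name (shm5), matched by day and through the study's own headings. All genes' counts entered the quasi-likelihood test of edgeR 4.0.16, run under R 4.3.3 (TMM, filterByExpr, Benjamini-Hochberg over all genes tested), with day as a block for lines and line as a block for days; DESeq2 1.42.0 was an alternative. Scripts were tested on simulated data. Shares and folds from 1 library each carry exact intervals at 95%, which cover counting error only. Pseudogenes were aligned with BLAST 2.17.0 to GENCODE M21 transcripts. Length and GC bins, the length offset and the pseudogene sums were chosen after the data were seen. The offset was a lowess fit on gene length, in each library, of each gene's log2 CPM less its mean over the libraries fitted. The members and lists were chosen with earlier results of these data known. Named genes were the paralogs with the genes they copy, the 3 highest and 3 lowest members of each comparison, the 5 highest and lowest by level per length, and a short list of stalk, tunnel exit, 5S particle and well-known members; others are named where a count is small. Values of some single genes are not reported here.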

Additional observations from a re-analysis of the deposited data

Results flagged for a closer look

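The line difference was called lower at d6 to d12 than at d0 to d4 for 9 members, by the edgeR test of the difference itself (Benjamini-Hochberg adjusted p under 0.05). Of all genes tested, 5.24% were lower and 4.85% higher. Among these members the change on the log2 scale was -1.07 for Rplp2, -0.82 for Rplp1, -0.74 for Rps27l, -0.59 for Rps21, -0.50 for Rplp0, -0.49 for Rpl8, -0.45 for Rpl27a and -0.44 for Rpl18. Most of these calls depended on the processing. Only Rps27l was left with library totals, with the length offset or without the d0 libraries, and the count was 0 to 10 with a day left out.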

How the results depend on the processing

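The line tests paired the libraries by day; no fit with a replicate block was possible, since each line and day had 1 library and the labels number no replicates. Among members lower in the change of the line difference (9), the count was 1 with library totals, 21 with protein-coding genes only, 14 with DESeq2, 17 without the filter, 1 with the length offset and 16 with pseudogene reads added, and 0 to 10 with a day left out. Members higher over 7 days (2) were 6 with DESeq2 and 0 to 4 with a day left out; those lower stayed at 0. Over d6 to d12, the 3 higher were 7 with the length offset and 8 with pseudogene reads, and 1 to 5 with a day left out; the 5 lower were 2, 3 and 2 to 5. For d2 against d0, 1 member was higher with library totals and 1 with the length offset, and 81 were lower whichever other day was left out. The 10 lower at d6 against d2 were 19 with library totals and 8 to 14 with a day left out. The 13 lower at d12 against d6 were 32 with DESeq2, 20 without the filter and 4 to 41 with a day left out, and the 1 higher was 0 to 1. Members past the fold, summed over days (22 higher and 18 lower), were 49 higher with DESeq2 size factors, and 3 higher and 3 lower at a fold of 2. Rpl7l1 at d2 against d0 turned to 0.0658 with library totals, and Rpl13a over d6 to d12 to 0.0629 with pseudogene reads. The causes were not tested. Single libraries per group, and the few family reads on some members, limit these values.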
